A study of Mus musculus with 8 samples.

Results

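The comparison described here is that of the pancreas of leptin-deficient ob/ob mice with the pancreas of wild-type mice on a low-fat diet (LFD). All 15047 genes of the deposited expression values were taken, in 5 of the 8 mice of the series, namely ob/ob replicates 1 and 2 and LFD replicates 1 to 3. The ob/ob mice were male C57BL/6J animals homozygous for the ob allele of the leptin gene and ate standard rodent chow. The LFD mice were male C57BL/6 wild-type animals that received the LFD for 10 weeks from the age of 4 weeks. The other 3 mice, male C57BL/6 wild-type animals fed for 10 weeks on a high-fat diet (HFD), in which fat gave 60% of the calories, were used only where an ob/ob value was set beside theirs and to estimate the spread between mice. The methods of the study place the mice of all groups on their chow from 4 weeks of age, and the labels give no age at sampling. Its results text and figure legends describe the sequenced mice as carriers of mT organoids. These were grown from mouse pancreatic tumours and injected into the pancreas of every group. The labels name the tissue only as pancreas, and the libraries do not separate host tissue from transplant. Genotype and chow differed together between ob/ob and LFD mice, so their parts in any difference cannot be told apart. Each replicate was a different animal, and with 2 ob/ob mice against 3 LFD mice an exact permutation test of a single value cannot give a two-sided p below 0.2.

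Leptin is a hormone of fat cells that reports the size of the fat stores to the brain, and the ob allele stops its protein short, so that ob/ob mice overeat, gain weight and develop high insulin levels. Their islets of Langerhans are known to grow, because insulin-producing beta cells enlarge and divide when insulin demand rises. The rest of the pancreas consists mainly of acinar cells, which make digestive enzymes, and of ducts, vessels, nerves, fibroblasts and immune cells.

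Values are rlog values, which are read counts put on a log2 scale, corrected for library size and shrunken where reads are few. A difference of 1 is thus a 2-fold difference, and levels were compared between mice and not between genes. In pancreas RNA a large share of all reads comes from a few enzyme genes, so an acinar share was taken first. It was computed from rlog values put back on the linear scale and summed over genes. Counts were not used, so it is not a share of reads. A list of 30 genes of acinar enzymes and granule proteins made up 60.9%, 61.8% and 63.1% of the summed linear values in LFD replicates 1 to 3. The share was 57.4% in ob/ob replicate 1 and 24.0% in ob/ob replicate 2. It was 60.0%, 40.6% and 21.3% in the HFD mice. ob/ob replicate 2 therefore stood apart from the other 4 mice compared here. The median rlog value of each mouse lay between 7.09 and 7.25. In bulk tissue, fewer cells of a type and less RNA per cell cannot be told apart.

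Across all genes, limma found no gene with an adjusted p-value under 0.05 between ob/ob and LFD mice, and the smallest adjusted p was 0.135. Without adjustment, 1751 genes (11.6%) had a p under 0.05 and were higher in ob/ob mice, and 1080 genes (7.18%) were lower. Both ob/ob mice lay above all 3 LFD mice for 3626 genes (24.1%) and below all 3 for 3277 genes (21.8%), so the groups did not overlap for 45.9% of genes. The difference was positive for 53.1% of genes. These shares are the background against which the gene groups below are read, and each count of a group is of genes with an unadjusted p under 0.05. A group with a share near these is not set apart from all genes by its count. The median difference over all genes was 0.04. No gene named here passed the adjusted threshold in this fit, so higher and lower describe measured values.

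Both ob/ob mice differed from LFD in part in the same genes. ob/ob replicate 1 was more than 1 log2 unit from the LFD mean for 996 genes and ob/ob replicate 2 for 3837. For 681 genes both mice were beyond that distance in the same direction, 577 of them higher and 104 lower, while 13 genes were beyond it in opposite directions. The shared genes were 68.4% of those of replicate 1 and 17.7% of those of replicate 2. Both mice share the LFD mice as their reference, so the distances of the 2 mice are not independent.

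**Figure D1:**
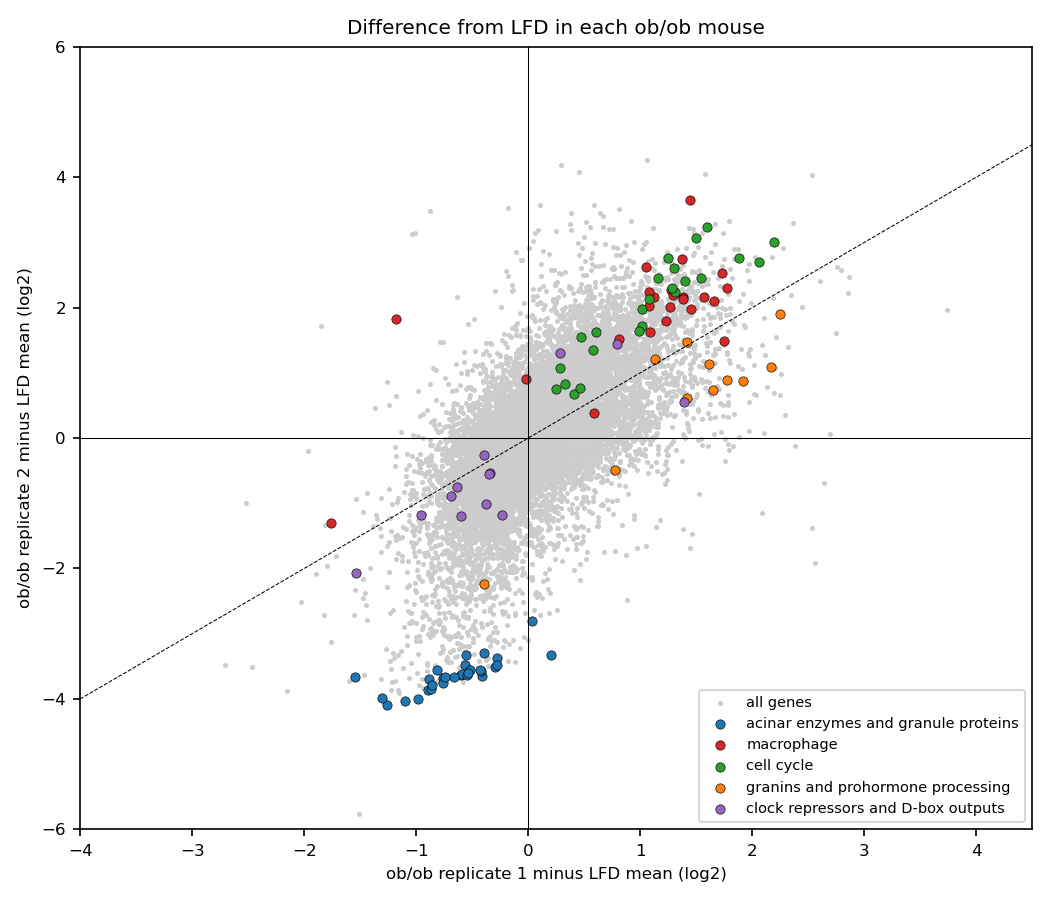
Each of the 15047 genes is a point, with its difference from the LFD mean in ob/ob replicate 1 on the horizontal axis and in ob/ob replicate 2 on the vertical axis, both in log2 units, and the dashed line marks equal differences. Macrophage and cell cycle genes lie mostly at the upper right, granin genes lie to the right of most of them, and acinar genes lie low, with a median of -0.60 in replicate 1 and -3.63 in replicate 2.

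The largest difference upward was that of H19, an imprinted non-coding RNA of fetal growth (chr7:142575529-142578143, minus strand, GRCm38). H19 was 4.58, 5.03 and 4.73 in the LFD mice and 7.32 and 8.82 in ob/ob replicates 1 and 2. The ob/ob mice were higher than every LFD mouse, with a difference of 3.29 (SE 0.46, adjusted p = 0.135 with limma). In the HFD mice H19 was 4.92, 5.77 and 5.69, so the ob/ob mice were also the 2 highest of all 8.

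A2m, which encodes a protease inhibitor of plasma (chr6:121635376-121679227, plus strand, GRCm38), was 5.16, 5.24 and 4.47 in the LFD mice and 7.72 and 7.58 in the ob/ob mice. The 2 ob/ob values were 0.14 apart and lay 2.34 above the highest LFD mouse. In the HFD mice A2m was 6.08, 7.03 and 6.74. The difference was 2.69 (SE 0.36, adjusted p = 0.135 with limma). Col11a1, a fibrillar collagen chain, was 5.09, 4.61 and 4.05 in the LFD mice, 6.95 and 7.88 in the ob/ob mice and 5.38, 5.50 and 5.66 in the HFD mice. It was thus highest in the 2 ob/ob mice, with a difference from LFD of 2.83 (SE 0.39).

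Timp1, an inhibitor of matrix metalloproteinases (chrX:20870166-20874735, plus strand, GRCm38), was 6.58, 7.33 and 6.71 in the LFD mice and 9.15 and 9.79 in the ob/ob mice. S100a4, a calcium-binding protein of fibroblasts and macrophages, was 6.69, 7.02 and 6.96 in the LFD mice, against 8.47 and 10.94 in the ob/ob mice. For S100a4, replicate 2 was further from LFD than replicate 1, while for Timp1 the 2 mice were close. Spag5, a protein of the mitotic spindle, was 4.02 to 4.57 in the LFD mice and 6.07 and 7.60 in the ob/ob mice. Nrcam, a cell adhesion molecule of neurons, was 3.78 to 4.46 in the LFD mice, 5.21 in ob/ob replicate 1 and 8.42 in replicate 2. The difference of 2.67 in Nrcam therefore came mainly from replicate 2.

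Fabp1, a fatty acid carrier of liver and gut, and Apoa1, an apolipoprotein of the same tissues, were higher in both ob/ob mice as well. Fabp1 was 3.80 to 4.05 in the LFD mice and 6.82 and 6.42 in the ob/ob mice, and Apoa1 was 3.60 to 3.89 and 6.51 and 6.29. Both genes stood at 13.31 and 13.46 in HFD replicate 3, whose values enter the pooled spread, and the SEs of their differences were 2.39 and 2.49. Of 15 genes listed for muscle, liver and gut, 6 were measured, and the mean of these 6 was 4.25 to 4.68 in LFD, 4.65 and 3.80 in ob/ob and 6.08 in HFD replicate 3.

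**Figure D2:**
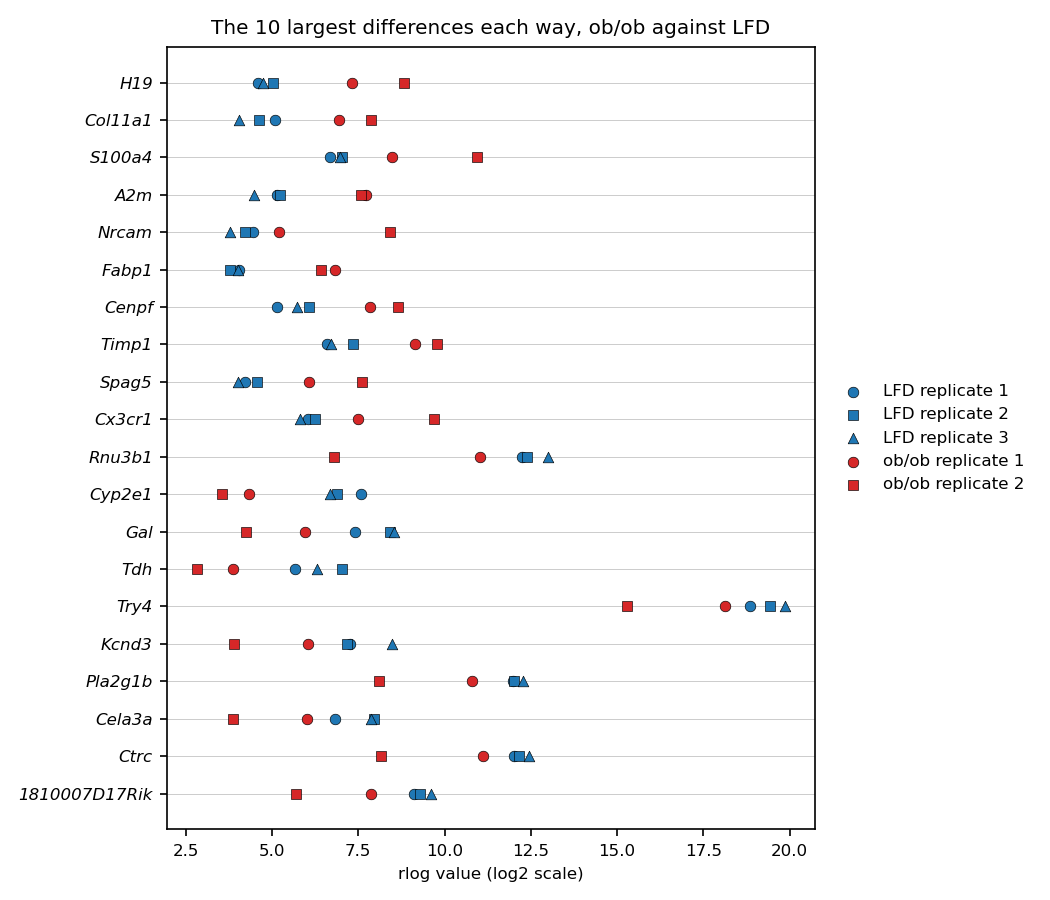
The 10 genes with the largest log2 difference in each direction are shown, drawn from those with an average of 5 or more over the 5 mice and with groups that do not overlap, with the rlog value of each of the 5 mice on the horizontal axis (blue, LFD; red, ob/ob; circle, square and triangle, replicates 1, 2 and 3). For H19 and A2m the red points lie to the right of all blue points, for Cyp2e1 and Tdh they lie to the left, and for Ctrc and Pla2g1b the square of ob/ob replicate 2 lies far to the left of the circle of replicate 1.

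Genes with large differences downward are given in 2 sets. The first set is the 5 genes, with a mean of at least 5, that had the widest gap below LFD. In these genes too, replicate 2 was the lower of the 2 ob/ob mice. Cyp2e1, a cytochrome P450 that oxidises ethanol and small solvents (chr7:140763739-140774987, plus strand, GRCm38), was 7.57, 6.87 and 6.69 in the LFD mice and 4.33 and 3.55 in the ob/ob mice. Its difference of -3.10 (SE 0.37, adjusted p = 0.135 with limma) had the smallest unadjusted p of the genes named here, and the HFD mice had values of 5.14, 5.16 and 4.73. Tdh, threonine dehydrogenase, was 5.67, 7.03 and 6.31 in the LFD mice and 3.87 and 2.82 in the ob/ob mice.

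Usp2, a deubiquitinase, was 7.62, 7.44 and 8.11 in LFD and 5.83 and 5.64 in ob/ob, so that its 2 ob/ob values differed by less than the LFD values. Gal, which encodes the neuropeptide galanin, was 7.40, 8.42 and 8.54 in LFD and 5.96 and 4.23 in ob/ob. Nat8, an acetyltransferase, was 5.96 to 6.66 in LFD and 4.57 and 3.22 in ob/ob.

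In the second kind, both ob/ob mice lay below LFD and replicate 2 lay further below than replicate 1. The elastase Cela3a was 6.82 to 7.95 in LFD, 6.00 in ob/ob replicate 1 and 3.88 in replicate 2. The chymotrypsin-like enzyme Ctrc, the phospholipase Pla2g1b, the trypsin Try4, the potassium channel gene Kcnd3 and the uncharacterised 1810007D17Rik gave differences between -2.55 and -2.68 in the same way. Rnu3b1, a copy of the U3 small nucleolar RNA, was 12.26 to 12.99 in LFD, 11.03 in ob/ob replicate 1 and 6.78 in replicate 2, and 6.78 to 6.94 in the HFD mice. Rnu3b1 and the trypsin genes have near-identical copies, so their reads may have been split between them.

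The leptin pathway was examined next, since leptin is the gene that the ob/ob mice lack in active form. Lep (chr6:29060220-29073877, plus strand, GRCm38) was 6.20, 5.86 and 6.28 in the LFD mice and 8.12 and 6.78 in the ob/ob mice, a difference of 1.34 (SE 0.37). Both ob/ob mice were above the highest LFD mouse, and the HFD mice were at 7.26 to 7.31. The ob allele is a change within the coding sequence that leaves a transcript to be measured, so this value does not check the genotype. Lepr, the leptin receptor, was 6.65 to 7.51 in LFD and 6.58 and 7.15 in ob/ob, with overlapping groups. Socs3, which blocks signalling of the leptin receptor, was 7.40 to 8.03 in LFD and 8.54 and 8.77 in ob/ob, and Ptpn1, a phosphatase with a like role, was 8.30 to 8.81 and 8.85 and 9.33. Of the 8 measured genes of leptin and its receptor pathway 2 were higher and 0 lower. The count higher was 0 without ob/ob replicate 1, 1 without ob/ob replicate 2, LFD replicate 1 or LFD replicate 3, and 4 without HFD replicate 1.

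Among islet hormones, the insulin genes, Iapp and Ppy were higher in both ob/ob mice, with the higher value in replicate 1. Ins1 (chr19:52264297-52265476, plus strand, GRCm38), one of the 2 insulin genes of the mouse, was 11.32, 12.26 and 11.16 in the LFD mice and 13.19 and 12.44 in the ob/ob mice. Ins2, the other insulin gene, was 11.62, 12.32 and 11.65 in LFD and 13.84 and 12.42 in ob/ob. Each ob/ob mouse exceeded all LFD mice, though replicate 2 exceeded LFD replicate 2 by little. Iapp, which is released with insulin, was 10.60, 11.38 and 10.50 in LFD and 13.09 and 11.81 in ob/ob, a difference of 1.62 (SE 0.44). Ppy, the pancreatic polypeptide, was 6.09, 7.37 and 6.19 in LFD and 8.33 and 7.87 in ob/ob. The alpha-cell hormone Gcg overlapped instead, at 10.27 to 11.63 in LFD and 11 and 9.83 in ob/ob.

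Of 8 islet hormones, 4 were higher and 0 lower, with a median difference of 0.96 against 0.04 over all genes. By sign alone, 5 of the 8 differences were positive and 3 negative, the lowest at -0.90. For 4 of the 8 the groups overlapped. The 4 genes with a p under 0.05 were Ins1, Ins2, Iapp and Ppy. Leaving out ob/ob replicate 1 gave 0 higher and 1 lower, and leaving out replicate 2 gave 4 higher, so the count rests on replicate 1. Ins1 and Ins2 are similar in sequence, and their reads may have been split between them.

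The granins and prohormone-processing enzymes, which fill and mature the secretory granules of endocrine cells, were higher in both ob/ob mice for most members. Chgb was 7.08, 8.01 and 6.73 in the LFD mice and 9.52 and 9.17 in the ob/ob mice. Scg2 was 9.72, 10.35 and 9.66 in LFD, 12.08 and 11 in ob/ob and 10.02, 9.36 and 9.07 in the HFD mice. Cpe, a carboxypeptidase that trims prohormones, was 8.48, 9.53 and 8.39 in LFD and 10.22 and 10.27 in ob/ob. For each of the 3 genes the ob/ob mice lay above all LFD mice. Of the 11 measured genes of this group 8 were higher and 0 lower, with a median difference of 1.34. The count was 4 higher and 1 lower without ob/ob replicate 1 and 7 higher without replicate 2, and 1 was lower without HFD replicate 1 or 3. With the acinar mean as a covariate it stayed at 8 higher.

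**Figure D3:**
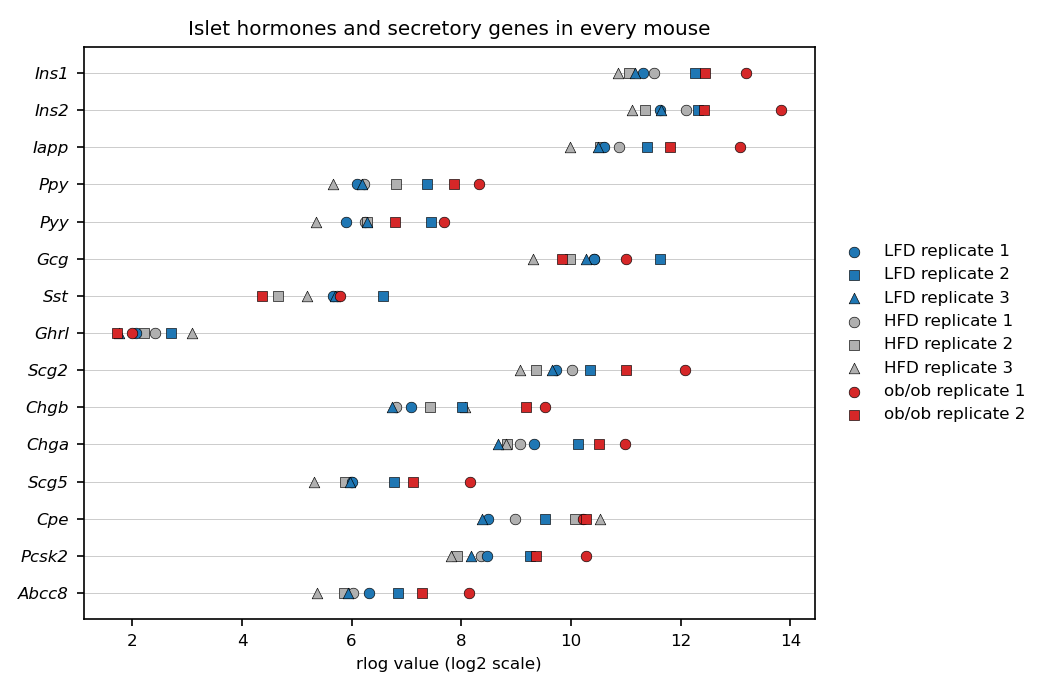
Rlog values on the horizontal axis, on the log2 scale, of 15 islet hormone and secretory genes in all 8 mice (blue, LFD; grey, HFD; red, ob/ob; circle, square and triangle, replicates 1, 2 and 3). The red points of Ins1, Ins2, Iapp, Ppy, Scg2 and Chgb lie to the right of the 3 blue points, and for Gcg the circle of replicate 1 lies among them and the square of replicate 2 to their left.

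Beta-cell identity genes lay in both directions. Of 18 genes, 3 were higher and 1 lower, with a median of 0.38. Leaving out ob/ob replicate 1 gave 1 higher and 3 lower, leaving out ob/ob replicate 2 gave 5 higher, and leaving out HFD replicates 1 and 3 in turn gave 2 and 3 lower. Ero1lb, an oxidase that folds insulin, was 13.60 to 13.85 in LFD, 12.84 in ob/ob replicate 1 and 10.72 in replicate 2, a pattern like that of the acinar genes. Acinar cells also make Ero1lb.

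Genes linked to beta-cell growth in pregnancy and obesity were higher in 6 of 10 and lower in 1. Foxm1, a transcription factor of dividing cells, was 3.32 to 3.62 in LFD and 4.98 and 6.39 in ob/ob, and Mki67, the Ki-67 proliferation marker, was 7.24 to 8.17 and 9.21 and 10.12. Foxm1 and Mki67 mark cells in division in general, and these libraries do not tell which cells carried them. Higher genes numbered 3 without LFD replicate 1 or 3, 2 without ob/ob replicate 2, and 3 when only genes with a mean of at least 5 were tested.

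Acinar products were lower in the ob/ob mice in unequal measure. Of the 30 acinar enzyme and granule genes 0 were higher and 3 lower, against 7.18% of all genes lower. The 2 ob/ob mice lay below all LFD mice for 26 of them, against 21.8% of all genes. The median difference was -2.11, made of -0.60 in replicate 1 and -3.63 in replicate 2. The count lower was 13 without ob/ob replicate 1 and 0 without ob/ob replicate 2. It was 10, 1 and 8 without HFD replicates 1, 2 and 3, and 1, 0 and 0 without LFD replicates 1, 2 and 3. The 10 acinar transcription factors had a median of -1.48, made of -0.29 in ob/ob replicate 1 and -2.60 in replicate 2. Of these 10 genes 0 were higher and 2 lower, with 0 lower without LFD replicate 1 or 3 and 6 and 5 without HFD replicates 1 and 3. Bhlha15, which drives granule formation, was 11.09 to 11.47 in LFD and 10.35 and 7.69 in ob/ob, and Nr5a2 was 9.74 to 10.10 and 9.29 and 6.98. The cholecystokinin receptor Cckar followed, at 12.26 to 12.46 and 11.60 and 8.93.

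Endoplasmic reticulum folding and secretion genes, of which acinar cells need many, were lower in 7 of 20, with a median of -1.01. Pdia2, a pancreas-rich isomerase of disulphide bonds, was 15.80 to 16.38 in LFD and 15.11 and 12.29 in ob/ob, and Herpud1, which takes part in the removal of misfolded proteins, was 12.70 to 12.92 and 12.13 and 10.51. The count lower was 13 without ob/ob replicate 1 and 0 without replicate 2, 14 and 12 without HFD replicates 1 and 3, and 4 without LFD replicate 3.

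The Reg genes, which acinar cells make under stress, went apart in the 2 mice. Reg3b was 14.82 to 15.25 in LFD, 15.98 in ob/ob replicate 1 and 12.61 in replicate 2, and Reg3g was 10.19 to 11.64, 13.38 and 9.46. Replicate 1 lay above every LFD mouse and replicate 2 below every LFD mouse for both genes. Of the 6 Reg genes 0 had a p under 0.05, whereas 4 were lower without ob/ob replicate 1 and 1 was higher without replicate 2.

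Metabolic genes of fat cells and of lipid handling were counted next. Of 16 adipocyte genes 0 were higher and 1 lower, with a median of -0.08. The count lower was 3 without LFD replicate 3, 2 without HFD replicate 1 or 3 and 4 without ob/ob replicate 1, and 1 was higher without ob/ob replicate 2. The lower gene was Cfd, the protease adipsin, which fat cells release into blood, at 8.41, 7.67 and 7.50 in LFD, 6.31 and 5.15 in ob/ob, a difference of -2.13 (SE 0.45). Car3, a carbonic anhydrase, was 8.83 to 9.87 and 9.16 and 7.81, and Pck1, an enzyme of glucose and glycerol synthesis, was 5.79 to 7.01 and 5.60 and 4.84. Pparg, the nuclear receptor of fat-cell formation, was 5.98 to 6.77 in LFD and 6.86 and 6.08 in ob/ob.

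Of 14 fatty acid synthesis genes 0 were higher and 3 lower. The count lower was 0 without LFD replicate 1, LFD replicate 2, HFD replicate 2 or ob/ob replicate 2 and 1 without LFD replicate 3, and 2 were higher without HFD replicate 1 or ob/ob replicate 1. Acacb, an acetyl-CoA carboxylase, was 8.81 to 9.02 in LFD and 8.33 and 6.54 in ob/ob, and Scd1, a desaturase, was 11 to 12.03 and 11.13 and 10.16. Thrsp was 5.93 to 6.53 and 5.73 and 3.69. Of these genes replicate 1 lay close to LFD and replicate 2 below it.

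Of 22 genes of fatty acid uptake, oxidation and PPAR targets 3 were higher and 3 lower, against 11.6% and 7.18% of all genes. The count higher was 1, 0 and 1 without LFD replicate 2, LFD replicate 3 and ob/ob replicate 2, and the count lower was 0 without ob/ob replicate 2. Fgf21, a hormone that acinar cells also make, was 7.60, 8.43 and 8.66 in LFD and 7.01 and 4.49 in ob/ob. Plin2, which coats lipid droplets, was higher, at 8.25 to 9.02 and 9.74 and 10.49. Of 16 cholesterol synthesis genes 2 were higher and 0 lower. The count higher was 0 without LFD replicate 1 or ob/ob replicate 2, 1 without LFD replicate 2, LFD replicate 3, HFD replicate 2 or ob/ob replicate 1, and 5 without HFD replicate 1 or 3. In the other direction 1 was lower without LFD replicate 2 and 2 were lower without ob/ob replicate 1.

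Among 21 cytochrome P450 and glutathione transferase genes 1 was higher and 3 were lower. The count lower was 1 without LFD replicate 2 or ob/ob replicate 2 and 6 or 7 without HFD replicate 3, HFD replicate 1 or ob/ob replicate 1, and 2 were higher without HFD replicate 3. Cyp1b1 was the higher one, at 6.30 to 7.39 in LFD and 8.62 and 8.11 in ob/ob, in contrast with Cyp2e1. Of 33 respiratory chain subunits 0 were higher and 7 lower, against 7.18% of all genes lower, with a median of -0.44. Both ob/ob mice lay below all LFD mice for 22 of them, against 21.8% of all genes. Ndufb9, of complex I, was 10.88 to 11.42 in LFD and 10.54 and 9.69 in ob/ob, and Uqcrq, of complex III, was 8.95 to 9.97 and 8.90 and 8.32. The count lower was 0 without ob/ob replicate 2, 1 and 2 without LFD replicates 2 and 3, and 15 without HFD replicate 1. Against 11.6% of all genes, 1 of 24 glycolysis and hypoxia genes was higher. It was Eno1, an enolase, named after its values were seen, at 10.15 to 10.72 in LFD and 10.90 and 12.22 in ob/ob. Slc16a3, a lactate exporter that had no p under 0.05, was 5.31 to 5.71 in LFD, 6.08 in ob/ob replicate 1 and 9.06 in replicate 2. The count of the list became 11 without ob/ob replicate 1 and 12 without HFD replicate 1, and 0 without ob/ob replicate 2, HFD replicate 2 or any 1 LFD mouse.

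Igfbp3 and Igfbp4, binding proteins that hold insulin-like growth factors, were higher in both ob/ob mice. Igfbp3 was 9.50 to 9.76 in LFD and 10.79 and 11.20 in ob/ob, and Igfbp4 was 9.34 to 9.68 and 10.48 and 11.06. In the list of 15 genes of the insulin and IGF axis 2 were higher and 2 lower, and without ob/ob replicate 2 there were 1 and 0.

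The circadian clock runs on a loop in which Arntl and Clock switch on the Per and Cry repressors, which in turn block the activity of Arntl and Clock. Genes with D-boxes, bound by Dbp and its relatives, are a further output of the loop. Per2 (chr1:91415982-91459324, minus strand, GRCm38) was 9.12, 8.58 and 8.86 in the LFD mice and 7.31 and 6.78 in the ob/ob mice. The pair was below all LFD mice by more than 1, a difference of -1.80 (SE 0.29, adjusted p = 0.137 with limma). Cry1 was 7.78 to 7.97 in LFD and 6.92 and 6.70 in ob/ob, and Per3 was 8.39 to 8.60 and 7.81 and 7.60. Per1 overlapped, at 7.36 to 8.10 and 7.34 and 7.48. Per1 and Per3 were chosen after their values were seen.

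Arntl, on the opposite arm of the loop, was 6.47, 5.78 and 5.77 in LFD and 7.12 and 7.21 in ob/ob, a difference of 1.16 (SE 0.30). Dbp was 7.82, 8.58 and 8.32 in LFD and 7.64 and 7.05 in ob/ob, and in the HFD mice it was lower, at 6.50, 5.84 and 5.77. Bhlhe40, another repressor, was higher instead, at 7.45 to 8.18 in LFD and 8.73 and 9.38 in ob/ob. Rora, which activates Arntl, was 9.66 to 9.76 in LFD and 9.22 and 8.11 in ob/ob. Among the 13 clock repressors and D-box genes 2 were higher and 6 lower, against 11.6% and 7.18% of all genes. Both ob/ob mice lay below all LFD mice for 8 of them, against 21.8% of all genes, and the median was -0.69. The count higher was 0 without LFD replicate 1, LFD replicate 2 or HFD replicate 2 and 1 without LFD replicate 3 or ob/ob replicate 2, and the count lower was 4 without LFD replicate 2, LFD replicate 3 or ob/ob replicate 2. The sources used here give no hour of sampling, so time of day and group cannot be told apart.

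**Figure D4:**
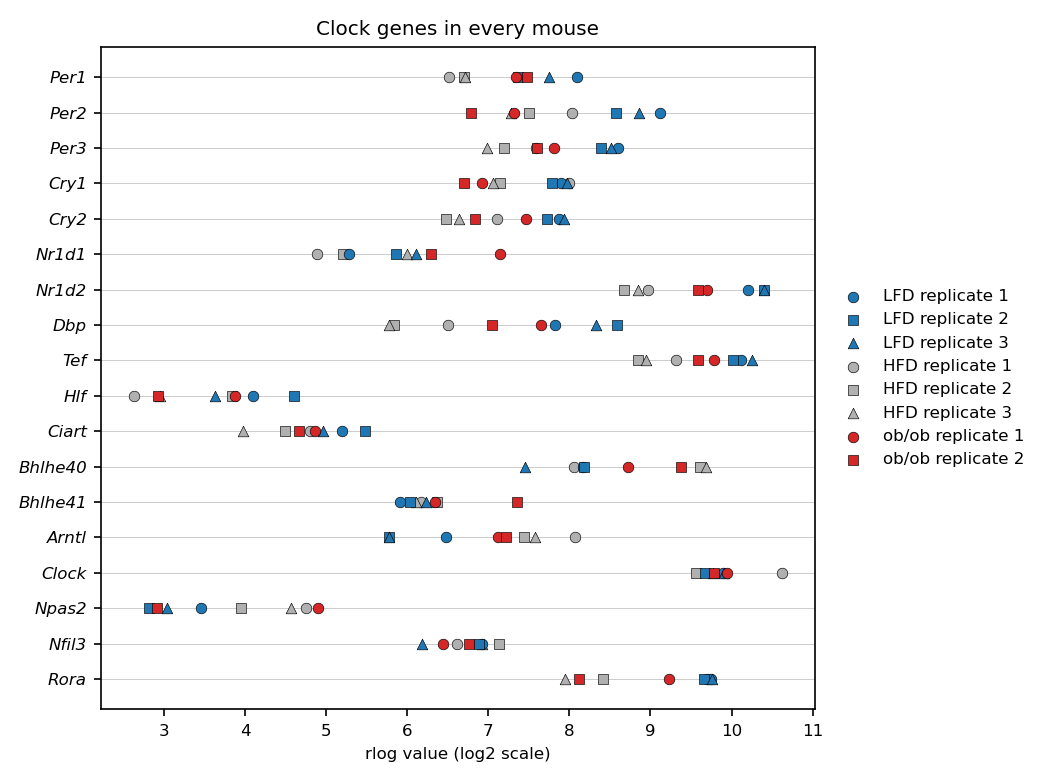
Rlog values on the horizontal axis, on the log2 scale, of 18 clock genes in all 8 mice (blue, LFD; grey, HFD; red, ob/ob; circle, square and triangle, replicates 1, 2 and 3). The red points lie to the left of the 3 blue points for Per2, Per3 and Cry1 and to the right for Arntl and Bhlhe40.

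The promoters of 2 clock genes are printed because the letters of the clock's binding sites can be read in them. They are the 250 bases before the start, on the gene's strand, from RefSeq (GRCm38.p6), and were searched on both strands for the E-box CACGTG, which reads the same on both, and for the D-box TTATGTAA. Capitals mark the matches, and bases after the start are not shown. Cry1 lies at chr10:85185055-85185304 on the minus strand, and Per3 at chr4:151044666-151044915 on the minus strand.

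Cry1: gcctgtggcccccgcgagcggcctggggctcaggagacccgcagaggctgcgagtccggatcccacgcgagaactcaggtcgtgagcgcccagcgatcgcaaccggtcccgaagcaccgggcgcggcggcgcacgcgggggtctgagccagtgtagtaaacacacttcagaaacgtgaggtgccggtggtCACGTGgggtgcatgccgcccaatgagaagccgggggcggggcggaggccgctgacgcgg
Per3: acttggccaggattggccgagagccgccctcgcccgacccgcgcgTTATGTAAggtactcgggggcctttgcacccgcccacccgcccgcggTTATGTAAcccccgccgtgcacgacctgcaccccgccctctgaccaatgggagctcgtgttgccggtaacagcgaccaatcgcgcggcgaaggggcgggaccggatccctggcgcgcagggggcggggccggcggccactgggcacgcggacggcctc

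Cry1 held 1 E-box and Per3 held 2 D-boxes. CACGTG occurred in 6.02% of the 32851 promoter windows and in 6.86% of all genes with an entry, and in 5 of the 11 clock repressor and D-box genes that have an entry. TTATGTAA occurred in 0.819% of the windows and 0.977% of all genes, and in 1 of those 11 genes. These are matches of letters only.

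Macrophage genes were higher in both ob/ob mice for most members. Cx3cr1, the receptor for fractalkine on tissue macrophages, was 6.05, 6.25 and 5.82 in the LFD mice and 7.48 and 9.70 in the ob/ob mice. Lgmn, a lysosomal protease, was 9.31, 9.35 and 8.76 in LFD and 10.87 and 11.67 in ob/ob. Msr1, a scavenger receptor, was 7.15, 7.28 and 6.97 in LFD and 8.51 and 9.88 in ob/ob. The 2 ob/ob mice lay above all LFD mice for each of these genes.

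Of 24 macrophage genes 21 were higher and 1 lower, and 21 lay above all LFD mice in both ob/ob mice, against 24.1% of all genes. The median was 1.69, 1.27 in replicate 1 and 2.12 in replicate 2. The lower gene, chosen after its values were seen, was Marco, another scavenger receptor, at 8.08, 7.81 and 5.63 in LFD and 5.41 and 5.88 in ob/ob. Among the fits that left out 1 mouse, Marco had a p under 0.05 only without LFD replicate 3. Leaving out ob/ob replicate 1 gave 19 higher and leaving out replicate 2 gave 15. The acinar share was 57.4% in replicate 1 and 24.0% in replicate 2, and its relation to these differences was not tested beyond the covariate. With the acinar mean as a covariate 19 were higher and 1 lower. The mean rlog of the 24 genes was 8.10 to 8.80 in LFD and 9.45 and 10.33 in ob/ob. In HFD replicates 1 to 3 it was 8.77, 9.55 and 9.16, with acinar shares of 60.0%, 40.6% and 21.3%.

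Monocyte chemoattractants were higher as well. Ccl2 was 4.64, 5.01 and 4.59 in LFD and 6.21 and 7.02 in ob/ob, a difference of 1.87 (SE 0.37). Ccl7 was 4.08 to 4.32 and 6.00 and 6.78, and Ccl12 was 4.16 to 4.63 and 6.27 and 7.33. For these 3 genes the ob/ob mice lay above all LFD mice by more than 1. In the list of 25 chemokines 8 were higher and 1 lower, and 2 were lower without LFD replicate 1 or ob/ob replicate 1. The cytokine Il6 was 2.45 to 2.99 in LFD and 4.59 and 3.94 in ob/ob.

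Saa3, an acute-phase protein of macrophages and fat, was 6.01, 6.43 and 6.19 in LFD and 8.40 and 8.37 in ob/ob, with a difference of 2.17 (SE 0.32). The 2 ob/ob values were 0.03 apart. In the HFD mice Saa3 was 8.16 to 9.33. Of 15 acute phase and plasma genes 6 were higher and 0 lower. The count was 3 without ob/ob replicate 1.

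Among neutrophil genes, S100a8 and S100a9, which form calprotectin, were higher in both ob/ob mice than in any LFD mouse. S100a8 was 5.69 to 6.21 in LFD, 7.48 and 7.17 in ob/ob and 7.78 to 9.47 in HFD, and S100a9 was 6.35 to 6.74 in LFD, 8.06 and 7.79 in ob/ob and 8.06 to 10.11 in HFD. Lcn2, an iron-binding protein of neutrophils and injured epithelium, was 7.31 to 8.65 in LFD, 10.69 in ob/ob replicate 1 and 8.05 in replicate 2. Of the 10 measured neutrophil genes 3 were higher and 0 lower, with 1 higher without ob/ob replicate 1 and 5 without LFD replicate 2, and 1 lower without LFD replicate 1.

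Antigen presentation genes of dendritic cells and MHC class II were higher in 7 of 14 and lower in 0. H2-DMa, which loads peptides on class II molecules, was 6.54 to 7.26 in LFD and 7.99 and 8.75 in ob/ob, and H2-DMb1 was 6.95 to 7.20 and 8.38 and 8.82. The count was 4 without LFD replicate 3 and 2 without ob/ob replicate 2. T and NK cell genes were higher in 1 of 12, in 4 without LFD replicate 2, in 2 without HFD replicate 1 and in 0 without LFD replicate 3 or ob/ob replicate 2. The B-cell gene Pax5 was high in LFD replicate 2 alone, at 7.13, against 1.76 and 2.0 in the other LFD mice and 2.28 and 2.39 in the ob/ob mice. Of 10 B and plasma cell genes 0 had a p under 0.05, and 1 was lower without LFD replicate 1.

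Matrix genes were examined by their class. Of 10 measured fibrillar collagens, which form the strong fibres of scar and stroma, 8 were higher and 0 lower, with a median of 1.78. Col1a1, the main chain of type I collagen, was 9.79, 9.28 and 8.89 in the LFD mice and 11.29 and 11.72 in the ob/ob mice. Col5a1 was 7.76 to 8.11 in LFD and 9.55 and 10.76 in ob/ob. Leaving out ob/ob replicate 1 left 7 of them higher and leaving out replicate 2 left 6, and with the acinar mean as a covariate 7 were higher.

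The collagen modifying enzymes, which hydroxylate and crosslink collagen, were higher in 11 of 17 and lower in 0, with a median of 1.46. Lox, a crosslinking oxidase, was 7.08, 6.99 and 6.24 in LFD and 8.94 and 9.55 in ob/ob, a difference of 2.48 (SE 0.37), and Loxl2 was 6.50 to 6.83 and 8.17 and 9.52. The count was 4 without ob/ob replicate 2 and 15 without replicate 1, and 9 with the acinar mean as a covariate. Of 16 elastic fibre and microfibril genes 11 were higher, with Fbn2 at 5.35 to 5.66 in LFD and 7.84 and 7.69 in ob/ob, and Fbn1 at 8.82 to 9.66 and 10.69 and 12.48. The count was 6 without ob/ob replicate 2 and 7 without LFD replicate 3. The 2 fibrillins thus differed in that Fbn2 was alike in both ob/ob mice and Fbn1 was higher in replicate 2.

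Matricellular proteins and proteoglycans, which line the matrix and bind growth factors, were higher in 12 of 22. Postn, periostin, was 9.11, 9.52 and 8.96 in LFD and 11.12 and 11.40 in ob/ob, a difference of 2.06 (SE 0.28, adjusted p = 0.135 with limma). Vcan, versican, was 6.18 to 6.70 in LFD and 8.49 and 8.57 in ob/ob, and in both genes the ob/ob mice lay close together. Tnc, tenascin C, was 7.49 to 9.0 in LFD and 9.72 and 11.34 in ob/ob. The count higher was 6 without ob/ob replicate 2, and 1 was lower without replicate 1.

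Of 18 metalloproteinases and their inhibitors 11 were higher and 1 lower. Mmp14, which cleaves collagen at the cell surface, was 7.33 to 8.16 in LFD and 9.0 and 9.92 in ob/ob, and Mmp12, a protease of macrophages, was 7.94 to 9.0 and 9.47 and 10.99. The count higher was 7 and 5 without LFD replicates 1 and 3 and 4 without ob/ob replicate 2, and 0 were lower without ob/ob replicate 2 or any 1 LFD mouse. Col4a1, of the basement membrane, was 9.56 to 10.33 in LFD and 11.11 and 11.55 in ob/ob, and Col6a3 was 8.51 to 9.01 and 9.86 and 11.96. Basement membrane genes were higher in 5 of 22, in 0 without ob/ob replicate 2, and in 9, 10 and 8 without HFD replicate 1, HFD replicate 3 and ob/ob replicate 1.

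Tgfbi, a protein induced by TGF-beta, was 8.29 to 8.84 in LFD and 10.18 and 11.23 in ob/ob. Has2, which makes hyaluronan, was 4.85 to 5.91 in LFD and 6.78 and 8.34 in ob/ob, and Pdgfrb, a receptor of fibroblasts and pericytes, was 7.38 to 8.11 and 8.41 and 9.79. For these 3 genes both ob/ob mice lay above every LFD mouse, which did not hold for all members of their lists. Of 14 genes of TGF-beta ligands, receptors and latency proteins 4 were higher and 0 lower, with 7 higher without HFD replicate 1 and 1 without ob/ob replicate 2, and 1 lower without LFD replicate 2 or ob/ob replicate 1. Of 13 inflammatory fibroblast genes 4 were higher and 0 lower, with a median of 0.15, and the count was 2 higher without ob/ob replicate 2 and 3 higher and 2 lower without ob/ob replicate 1. Of 12 myofibroblast genes 6 were higher and 0 lower, with 1 higher without LFD replicate 3 or ob/ob replicate 2.

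Cell cycle genes were higher in 18 of 24 and lower in 0, against 11.6% of all genes higher. For all 24 both ob/ob mice lay above the 3 LFD mice, against 24.1% of all genes. The median was 1.69, 1.12 in replicate 1 and 2.19 in replicate 2. The count was 4 without ob/ob replicate 2, 10 without LFD replicate 1, and 9 with the acinar mean as a covariate. Cenpf, of the kinetochore, was 5.14, 6.07 and 5.71 in LFD, 7.83 and 8.64 in ob/ob and 6.66 to 8.66 in HFD. Cenpe, a motor protein of the kinetochore, was 5.26 to 5.79 and 7.55 and 8.20, and Kif20a, needed for cytokinesis, was 4.47 to 5.61 and 6.59 and 8.23. The transplanted mT cells divide, and these libraries do not separate them from host cells.

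Most cell cycle promoters hold the letters CCAAT, so 2 are printed, chosen after values were seen, with the matches in capitals (ATTGG on the opposite strand). Cenpf, at chr1:189688087-189688336 on the minus strand, has 2, and Top2a, which untangles DNA in dividing cells and was 7.39 to 8.56 in LFD and 9.17 and 10.68 in ob/ob, has 6, at chr11:99024190-99024439 on the minus strand.

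Cenpf: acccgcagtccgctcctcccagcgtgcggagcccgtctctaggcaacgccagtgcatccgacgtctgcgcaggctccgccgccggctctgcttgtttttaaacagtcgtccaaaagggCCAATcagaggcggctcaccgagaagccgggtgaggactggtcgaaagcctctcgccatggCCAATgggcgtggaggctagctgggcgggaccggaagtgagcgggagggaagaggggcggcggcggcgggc
Top2a: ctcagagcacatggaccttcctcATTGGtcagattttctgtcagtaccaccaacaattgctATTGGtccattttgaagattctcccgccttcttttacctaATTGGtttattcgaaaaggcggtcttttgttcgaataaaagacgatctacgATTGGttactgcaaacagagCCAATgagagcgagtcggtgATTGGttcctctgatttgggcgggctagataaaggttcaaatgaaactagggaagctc

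CCAAT occurred in 19 of the 20 cell cycle genes with an entry, against 33.8% of all promoter windows. It occurred in 9 of 11 clock repressor and D-box genes with an entry, so it was not particular to cell cycle genes. The counts were 2 of 5 for clock activators, 7 of 19 for macrophage genes and 5 of 23 for acinar genes with an entry. Genes can have several windows, and over all genes with an entry the share with at least 1 match was 37.5%. A match of letters says nothing of the factor bound.

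Ducts, vessels, nerves and other tissues were described in the same way. Ductal genes were higher in 0 and lower in 3 of 21, with 6 lower without ob/ob replicate 1, 0 without ob/ob replicate 2 or LFD replicate 3 and 1 without LFD replicate 1, LFD replicate 2 or HFD replicate 2. The median of the ductal genes was -0.08, 8 of the 21 had a positive difference, and 18 overlapped with LFD. Among those with a negative difference, Muc1 was 10.27 to 10.83 in LFD and 10.02 and 7.84 in ob/ob. Tff2, a mucus-associated peptide, was 15.04 to 15.40 and 14.40 and 11.49. The 17 endothelial genes had 0 calls (1 higher and 2 lower without ob/ob replicate 1, 1 higher without replicate 2) and all overlapped, with a median of 0.03, and Lyve1, of lymphatic vessels, was 6.39 to 7.54 and 7.45 and 8.03. Of 10 Schwann cell and nerve genes 3 were higher, 1 without ob/ob replicate 2, Ncam1 at 5.57 to 6.29 in LFD and 6.85 and 9.27 in ob/ob among them. Of 9 mesothelial genes 2 were lower and 0 higher, and 6 overlapped. Lower genes numbered 0 without LFD replicate 1 or ob/ob replicate 2, 1 without LFD replicate 3 or HFD replicate 2, and 4 without LFD replicate 2, while 1 was higher without LFD replicate 2 or HFD replicate 1. Upk3b, one of the mesothelial genes, was 5.92 to 7.00 in LFD and 5.26 and 4.83 in ob/ob. Of the 6 measured genes of muscle, liver and gut 1 was lower and 0 higher, and 5 overlapped. Ckm, of muscle, was 4.08 to 5.22 in LFD and 3.07 and 2.29 in ob/ob, and the count lower was 0 without LFD replicate 3 or ob/ob replicate 2.

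The acinar share differed between the ob/ob mice, so the counts were also taken with the acinar mean as a covariate. Among those that moved by more than 1.5 times, in the direction higher, were beta-cell growth (from 6 to 3), leptin pathway (2 to 1), fatty acid uptake and oxidation (3 to 1), cholesterol synthesis (2 to 0), glycolysis and hypoxia (1 to 0), clock repressors (2 to 0), basement membrane (5 to 3), elastic fibre (11 to 7), metalloproteinases (11 to 5), myofibroblast (6 to 1), dendritic cell and MHC class II (7 to 4), T and NK cell (1 to 0), cell cycle (18 to 9), Reg (0 to 3) and beta-cell identity genes (3 to 5). In the direction lower, such counts included fatty acid synthesis (3 to 1), respiratory chain (7 to 2), ductal (3 to 0), mesothelial (2 to 0), adipocyte (1 to 2) and insulin and IGF genes (2 to 1). The part of the acinar share in these counts was not tested beyond this fit.

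**Figure D5:**
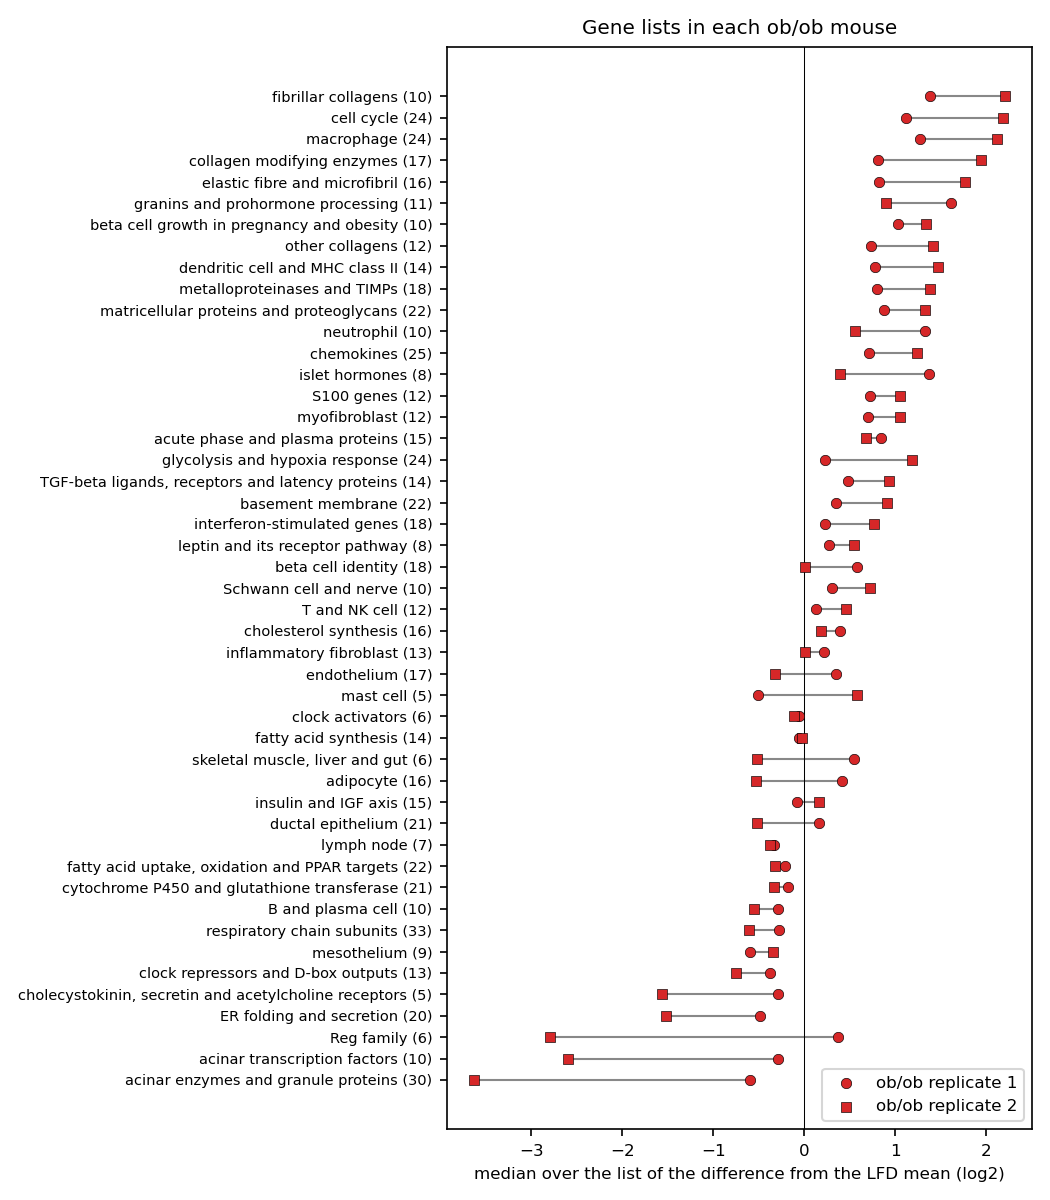
Median of each gene list's differences from the LFD mean, in log2 units on the horizontal axis, for ob/ob replicate 1 (circles) and ob/ob replicate 2 (squares), with the number of measured genes in brackets and a line joining the 2 mice. Fibrillar collagens (1.38 and 2.21), cell cycle (1.12 and 2.19) and macrophage genes (1.27 and 2.12) lie above 1 in both mice, granins (1.61 and 0.90) lie farther right in replicate 1 than in replicate 2, and acinar genes lie farthest to the left in replicate 2.

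Some genes separated the mice within the ob/ob group. Dkk2, an inhibitor of Wnt signalling, was 5.17 to 5.90 in LFD, 5.72 in ob/ob replicate 1 and 9.20 in replicate 2. Prkg2, a cGMP-dependent kinase, was 4.49 to 5.79, 5.46 and 8.53. These 2 genes overlapped with LFD in replicate 1 only.

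To ask whether a difference was larger in ob/ob mice than on the HFD, the ob/ob mice were set against the HFD mice in the same fit. No gene passed an adjusted p under 0.05, and the smallest adjusted p was 0.883. Without adjustment 343 genes (2.28%) were higher and 245 (1.63%) lower in ob/ob. Islet genes were among the larger differences, with Scg2 higher by 2.06 and Iapp by 1.98 in ob/ob than in HFD (adjusted p = 0.883 with limma for both). Ins1 was higher by 1.68, Chgb by 1.91, and Ppy by 1.87 with an adjusted p of 0.948 with limma. H19 was higher by 2.61 and Col11a1 by 1.90. These differences did not pass the adjusted threshold, so they are not shown to be particular to leptin deficiency.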

How the data were processed

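Total RNA from the pancreas of 8 male mice was sequenced as paired-end reads. The authors quantified transcripts of Gencode M18 (GRCm38.p6) with Salmon 0.11.3, summed them per gene with tximport and deposited rlog values made with DESeq2 1.22.2, which are log2 values adjusted to library size and cover 15047 symbols. The filter and the rlog setting are not given in the sources used here. Counts were not used here, the depth of each mouse is unknown, and no counting error was given.

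Limma 3.58.1 (R 4.3.3) fitted 1 mean per group to all 8 mice, with a variance trend and Benjamini-Hochberg adjustment over all 15047 genes. In simulated data with 200 changed genes for this comparison, run on 15047 genes, 2%, 12%, 90% and 100% of those changed by 2, 4, 8 and 16 residual SDs were recovered, with 6 false calls. The simulated noise was independent between genes and had the same SD in every mouse. In the data the SD over genes of the difference from the LFD mean was 0.27 to 0.28 in LFD and 0.52 and 0.99 in ob/ob. These rates therefore need not hold for the real fit. Gene lists, 47 in all, were written by hand. The members, lists and rules were chosen with earlier results of these data known. Genes were named as the 10 largest each way with a mean of at least 5 and no overlap, the 5 with the widest gap each way, the 5 each way that differ most between the ob/ob mice, the 3 largest of each list, and 12 fixed genes. Eno1, Top2a, Marco, Per1 and Per3 were added after values were seen. Some genes that the rule names are not reported here. Coordinates are from Gencode M21 and promoters from RefSeq. Figures were drawn with matplotlib. The alternatives were the variance without a trend, only the 5 mice compared, a mean of at least 5, centring on the median, quantile normalization, the acinar mean as a covariate, the replicate number as a block, and leaving out each mouse.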

Additional observations from a re-analysis of the deposited data

Results flagged for a closer look

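Tnr, which encodes tenascin R of nerve matrix, lay above all LFD mice in both ob/ob mice and below all LFD mice in the 3 HFD mice. Tnr was 3.71, 4.58 and 3.87 in the LFD mice, 5.80 and 5.48 in the ob/ob mice and 3.40, 3.09 and 3.61 in the HFD mice. The difference between ob/ob and HFD was 2.27, with an adjusted p of 0.883 with limma, so the opposite sides are a description of these mice. Of 15047 genes 38 (0.253%) had this pattern in either direction.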

How the results depend on the processing

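Counts of genes with an adjusted p under 0.05 between ob/ob and LFD were 0 in the fit reported and 38 with only the groups compared, 1 with the acinar mean as a covariate, 0 to 89 when each mouse was left out, with 89 without HFD replicate 1 and 61 without ob/ob replicate 1. The genes called in the 3 settings with 38, 89 and 61 calls had 3 genes in common, Ccr2, Cyp2e1 and H19. Of genes with an unadjusted p under 0.05, 944 were higher and 530 lower with the acinar covariate, and 1707 were lower with only the groups compared. When each mouse was left out, 607 to 2318 were higher and 145 to 1757 lower, with the fewest without ob/ob replicate 2 and the most without HFD replicate 1. Without LFD replicates 1, 2 and 3 the lower genes numbered 654, 576 and 504, without ob/ob replicate 1 there were 1686, and without LFD replicate 3 the higher genes numbered 1055. Between ob/ob and HFD the count was 1 with the acinar covariate (Scg2) and 0 to 1 when each mouse was left out, with 1 without ob/ob replicate 2 (Rnu3b1). Genes without overlap made up 53.9% to 76.0% of all genes when a mouse was left out, against 45.9%, since fewer mice overlap less. The cause of the other changes was not tested.

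The direction reversed with the acinar covariate for Apoa1 (-0.48), Fabp1 (-0.24), Gcg (0.32), Pparg (-0.055) and Reg3b (1.02). For Apoa1 and Fabp1 that fit held HFD replicate 3, at 13.46 and 13.31 with an acinar share of 21.3%. HFD replicate 2, with a share of 40.6%, was at 3.70 and 3.71. With each mouse left out in turn, Gcg ranged from -0.94 without ob/ob replicate 1 to 0.23 without ob/ob replicate 2 and was 0.08 without LFD replicate 2. In the same way Lepr ranged from -0.51 without ob/ob replicate 2 to 0.062 without replicate 1, Pparg from -0.19 without ob/ob replicate 1 to 0.58 without replicate 2, Reg3b from -2.49 without ob/ob replicate 1 to 0.88 without replicate 2, Reg3g from -1.39 without ob/ob replicate 1 to 2.53 without replicate 2, and Pax5 from -2.23 without LFD replicate 1 to 0.46 without LFD replicate 2. The other named genes kept their direction under every setting run. The replicate number as a block gave 0 genes with an adjusted p under 0.05, 1882 higher and 1361 lower without adjustment. Whether the replicate numbers pair the mice cannot be told. The deviations of ob/ob replicate 1 and LFD replicate 1 had a correlation of -0.10. Those of ob/ob replicate 2 and LFD replicate 2 had one of 0.13. With 2 ob/ob mice the deviations of one mirror those of the other, so these correlations do not decide it. The depth is unknown and its limit on each value cannot be given.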
